A study of Arabidopsis thaliana with 4 samples.

Results

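The clade III SWEET genes of Arabidopsis thaliana encode membrane carriers that let sucrose leave cells down its own gradient. The members described here are the 6 genes SWEET9 (AT2G39060), SWEET10 (AT5G50790), SWEET11 (AT3G48740), SWEET13 (AT5G50800), SWEET14 (AT4G25010) and SAG29 (AT5G13170, also called SWEET15). They were taken by name from the platform's gene table, and each had 1 named probe with a value on all 4 arrays. They are 6 of the 10480 named genes measured on every array, and their 6 probes are among 19449 such probes in all. SWEET12, the remaining gene of the clade, had no named probe in the gene table used and was not analysed here.

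The study compared laser-captured endosperm with other silique tissue at 4 days after pollination, while the endosperm was proliferating. There were 3 endosperm samples, each hybridised against 1 common reference RNA scraped from the tissue that remained on a sample slide once the endosperm had been cut out; another label calls this reference whole silique. The endosperm RNA was labelled with Cy3 for replicate 1 and with Cy5 for replicate 3, while that of replicate 2 went onto 1 array with each dye. The labels give no genotype, treatment or number of plants for the samples, so the p-values rest on the spread of these 3 samples, which may be technical, and leave out that of the reference. Each value below is a log2 ratio of the 2 channels, in which -1 stands for a level 2-fold lower in endosperm.

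SWEET carriers work in either direction across a membrane, without coupling to protons, and those of clade III sit mainly in the plasma membrane. Sucrose arrives in the fruit through the phloem and has to leave the maternal tissues of the seed before the endosperm and embryo can take it up, because no plasmodesmata join the generations. In leaves, SWEET11 and SWEET12 release sucrose for phloem loading, and in seeds SWEET11, SWEET12 and SWEET15 act together in filling the embryo.

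The direction of the ratios was not given in the sources used here and was set from a list of endosperm marker genes. Its 12 measured genes had a median log2 ratio of 1.46 (replicate 1), 1.56 (replicate 2, Cy3), 1.495 (replicate 2, Cy5) and 1.26 (replicate 3), so endosperm over reference is the likely direction. If it ran the other way, every sign and every "higher" and "lower" below would change. Of these 12 genes 11 were higher in endosperm, led by the MADS-box gene AGL38 (PHE2) at 2.97 ± 0.05 and by AT5G26630 at 2.94 ± 0.05 (SD, n = 3 replicates), and the list's sign is no separate evidence. Among markers of the surrounding tissue, ALC, a regulator of fruit opening and the 1 measured silique wall gene of 11 listed, was at -2.40 ± 0.22. Of 3 measured seed coat markers 1 was lower, INO at -0.73 ± 0.27, while BAN at -0.39 ± 0.28 and DFR at 0.15 ± 0.27 did not pass. None of 11 embryo markers and none of 5 nectary markers had a named probe. Arrays correlated with one another at Pearson's r between 0.87 and 0.92 across probes, which are not independent replicates.

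Transcripts of 5 clade III genes were lower in endosperm than in the reference, and those of SAG29 were higher. SWEET11, SWEET10, SWEET14 and SWEET13 formed a group from 13.4-fold to 28.7-fold lower, SWEET9 was 2.20-fold lower, and SAG29 was 1.89-fold higher. All 6 passed the test against no change (limma, Benjamini-Hochberg adjusted p under 0.05 over all 19449 probes), with a largest adjusted p of 0.00152. A call by itself says little here, since 57.5% of all probes were called, 32.0% as higher and 25.5% as lower. All 6 members had 1 sign on all 4 arrays, as did 71.7% of all probes. The size of the ratios is less common: 4 of the 6 members lay more than 8-fold below the reference, against 1.85% of all probes (359 of 19449). The median of the 6 members was -3.77, beside a median of 0.11 over all probes. In RNA from dissected tissue, fewer cells that express a gene and less transcript per cell cannot be told apart.

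**Figure D1:**
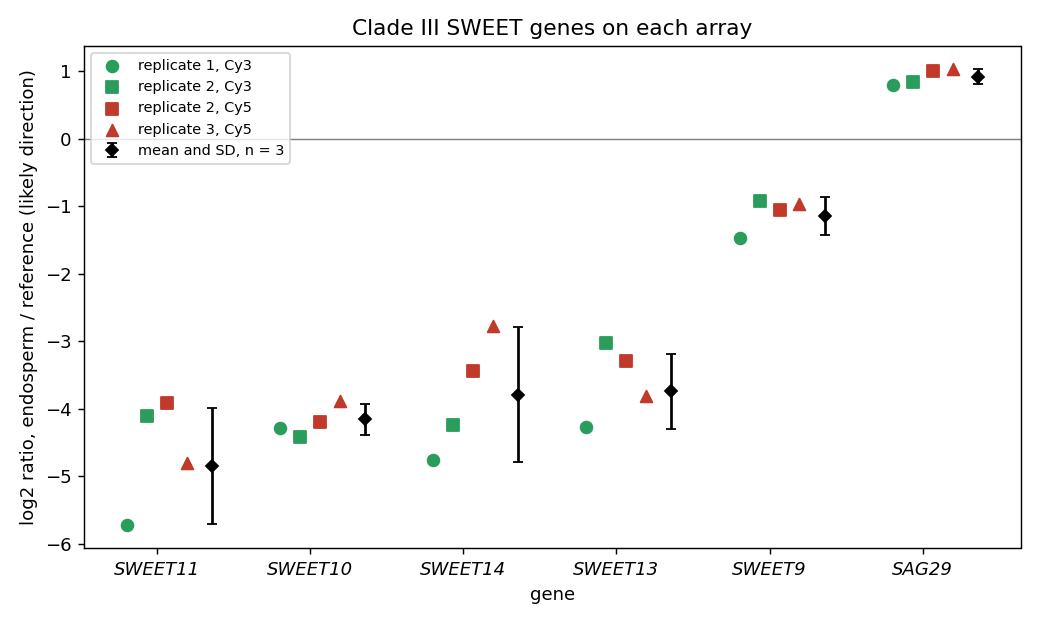
Log2 ratio (y axis) of the 6 clade III SWEET genes (x axis, ordered by mean) on each of the 4 arrays, with endosperm in Cy3 in green and in Cy5 in red; black diamonds and bars are the mean and SD over 3 replicates. SWEET11, SWEET10, SWEET14 and SWEET13 overlap between -5.73 and -2.77, SWEET9 lies between -1.47 and -0.92, and the 4 values of SAG29 lie above 0.

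SWEET11 encodes the sucrose exporter best known from phloem loading in leaves and from seed filling. Its log2 ratio was -5.73 in replicate 1, -4.10 (Cy3) and -3.92 (Cy5) in replicate 2, and -4.80 in replicate 3. Replicate 1 was the lowest, both arrays of replicate 2 the highest, and all were far below 0. The mean of -4.84 ± 0.86 (SD, n = 3) had a 95% interval from -5.62 to -4.07, or 49.2-fold to 16.8-fold lower (limma adjusted p = 0.000176). Of the 19449 probes, 7 lay at or below this mean, SWEET11 included.

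SWEET10 is known in the shoot apex, where it is induced by the flowering signal FT. Its log2 ratio was -4.28 in replicate 1, -4.41 (Cy3) and -4.19 (Cy5) in replicate 2, and -3.89 in replicate 3. The 4 arrays spanned 0.52, the narrowest span among the 4 strongly depleted genes, and no array stood apart. The mean was -4.16 ± 0.23 (17.8-fold lower, 95% interval -4.50 to -3.81, limma adjusted p = 0.000125). Its SD was near the middle of all probes, 51.1% of which had one as small, whereas 97.8% of probes had an SD no larger than that of SWEET11.

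SWEET13 and SWEET14 are close relatives that carry sucrose and also gibberellin, and they are known from the anther. The log2 ratio of SWEET13 was -4.27 in replicate 1, -3.02 (Cy3) and -3.29 (Cy5) in replicate 2, and -3.80 in replicate 3. As with SWEET11, replicate 1 was lowest and replicate 2 highest. The mean was -3.74 ± 0.56 (13.4-fold lower, 95% interval -4.29 to -3.19, limma adjusted p = 0.000151), and 98 probes lay at or below it.

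The log2 ratio of SWEET14 was -4.76 in replicate 1, -4.24 (Cy3) and -3.45 (Cy5) in replicate 2, and -2.77 in replicate 3. Both Cy5 arrays were higher than both Cy3 arrays, as they also were, by less, for SWEET10 and SAG29. The mean was -3.79 ± 0.998 (13.8-fold lower, 95% interval -4.67 to -2.91, limma adjusted p = 0.000479), close to that of SWEET13 but with nearly the widest spread on the arrays, as 98.7% of probes had an SD no larger. For SWEET14 the Cy5 arrays (replicates 2 and 3) averaged -3.11 and the Cy3 arrays (replicates 1 and 2) -4.50. This difference of 1.39 thus mixes dye with replicate. The dye term, fitted with the 4 arrays taken as independent, had an unadjusted p of 0.00461 (limma). It did not pass over all probes (limma adjusted p = 0.284). Within replicate 2, where both arrays hold the same RNA, the Cy5 array was 0.79 above the Cy3 array, beside an SD of 0.42 for that difference over all probes. For the other 5 members the same difference within replicate 2 lay between -0.26 (SWEET13) and 0.22 (SWEET10). With the dye as a covariate the mean of SWEET14 was -3.80 (limma adjusted p = 3.6e-05), close to the -3.79 above. That fit also took the 4 arrays as independent, so its p cannot be set beside the one from 3 replicates. On the arrays of either dye alone the gene was called lower.

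SWEET9 exports sucrose in nectaries, where it is needed for nectar secretion. Its log2 ratio was -1.47 in replicate 1, -0.92 (Cy3) and -1.06 (Cy5) in replicate 2, and -0.96 in replicate 3. Replicate 1 was again the lowest, and the other 3 arrays lay between -1.06 and -0.92. The mean was -1.14 ± 0.28 (2.20-fold lower, 95% interval -1.51 to -0.77, limma adjusted p = 0.001498), and 12.0% of all probes lay at or below it.

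SAG29, a gene of leaf senescence and salt response that encodes SWEET15, was the member with more transcript in endosperm. Its log2 ratio was 0.80 in replicate 1, 0.85 (Cy3) and 0.999 (Cy5) in replicate 2, and 1.04 in replicate 3. All 4 arrays were above 0 and spanned 0.23, the narrowest span of the 6 members. The mean was 0.92 ± 0.12 (1.89-fold higher, 95% interval 0.62 to 1.22, limma adjusted p = 0.00152), and 15.0% of all probes lay at or above it. When the test asked for more than a 1.5-fold change, which 25.1% of probes passed, SAG29 did not pass (adjusted p = 0.0658) and the 5 lower members did.

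**Figure D2:**
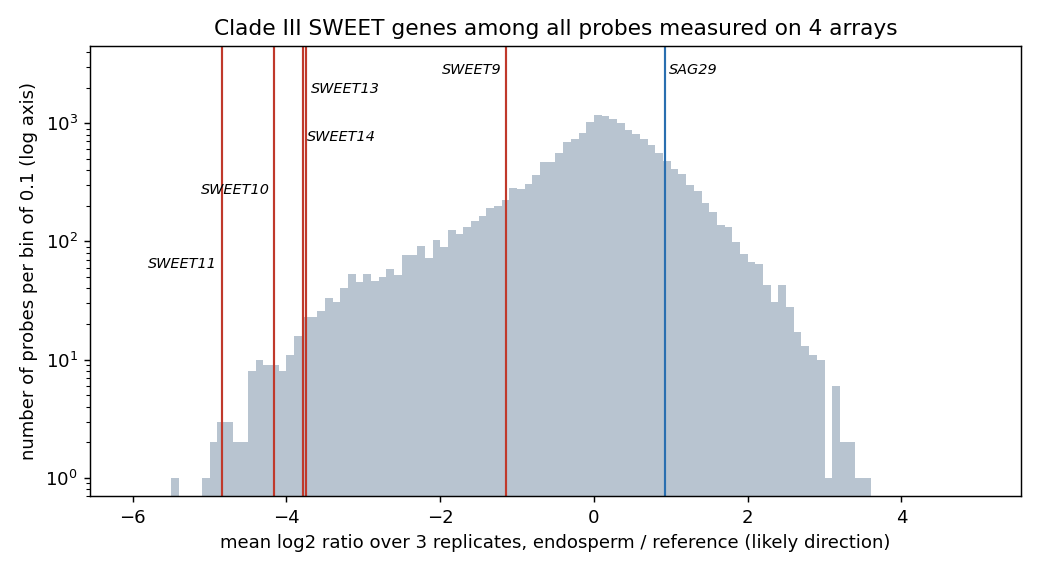
Number of probes (y axis, log scale) by mean log2 ratio over 3 replicates (x axis) for the 19449 probes measured on all 4 arrays, with the 6 members marked by vertical lines (red below 0, blue above). SWEET11, SWEET10, SWEET14 and SWEET13 stand in the thin lower tail, with 7, 46, 88 and 98 probes at or below them, while SWEET9 and SAG29 lie within the body of the distribution.

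For 5 of the 6 members the lowest of the 4 values was that of replicate 1, and for SWEET10 it was that of replicate 2 with Cy3. Replicate 1 held the lowest value of 33.1% of all probes and of 68.8% of the probes more than 8-fold lower. Without replicate 1, SWEET11 was at -4.40, SWEET10 at -4.10, SWEET13 at -3.48, SWEET14 at -3.30, SWEET9 at -0.98 and SAG29 at 0.98. All 6 were still called, though the share of all probes called in that fit is not given here.

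The members were then set against each other within replicates, which cancels what an array does to all its probes. Of the 15 pairs, 9 had replicate values that did not overlap, and these were the 5 pairs of SAG29 with another member and the 4 pairs of SWEET9 with a strongly depleted gene. SAG29 exceeded SWEET11 by 6.53, 4.93 and 5.83 in replicates 1, 2 and 3 (mean 5.76 ± 0.80), and exceeded SWEET9 by 2.27, 1.92 and 1.99 (mean 2.06 ± 0.19). SWEET9 exceeded SWEET13, the nearest gene below it in size, by 2.80, 2.16 and 2.84 (mean 2.60 ± 0.38). The exact sign-flip permutation test (two-sided) gave p = 0.25 for each of these 9 pairs, the smallest value that 3 replicates allow. After Benjamini-Hochberg adjustment over the 15 pairs it was 0.312. In all, 12 of the 15 pairs had this p, so the test does not set these 9 apart.

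Among SWEET11, SWEET10, SWEET14 and SWEET13 all 6 pairs overlapped, so their order is not resolved. SWEET13 was above SWEET11 in each replicate, by 1.46, 0.85 and 0.99, with an SD of 0.32 that is smaller than that of either gene alone. SWEET13 and SWEET14 differed by 0.49, 0.69 and -1.04 (mean 0.05 ± 0.94), a difference without a settled sign. SWEET10 and SWEET13 are next to each other in the RefSeq annotation (assembly TAIR10.1), and SWEET13 was above SWEET10 by 0.01, 1.15 and 0.09 (mean 0.41 ± 0.63). The gene on the other side of SWEET10, AT5G50780, ran the opposite way at 0.83 ± 0.22 (limma adjusted p = 0.00368), and the protein-coding gene beyond SWEET13, TIM8, had no named probe. How far a probe of one SWEET gene takes up transcript of a close relative was not measured.

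**Figure D3:**
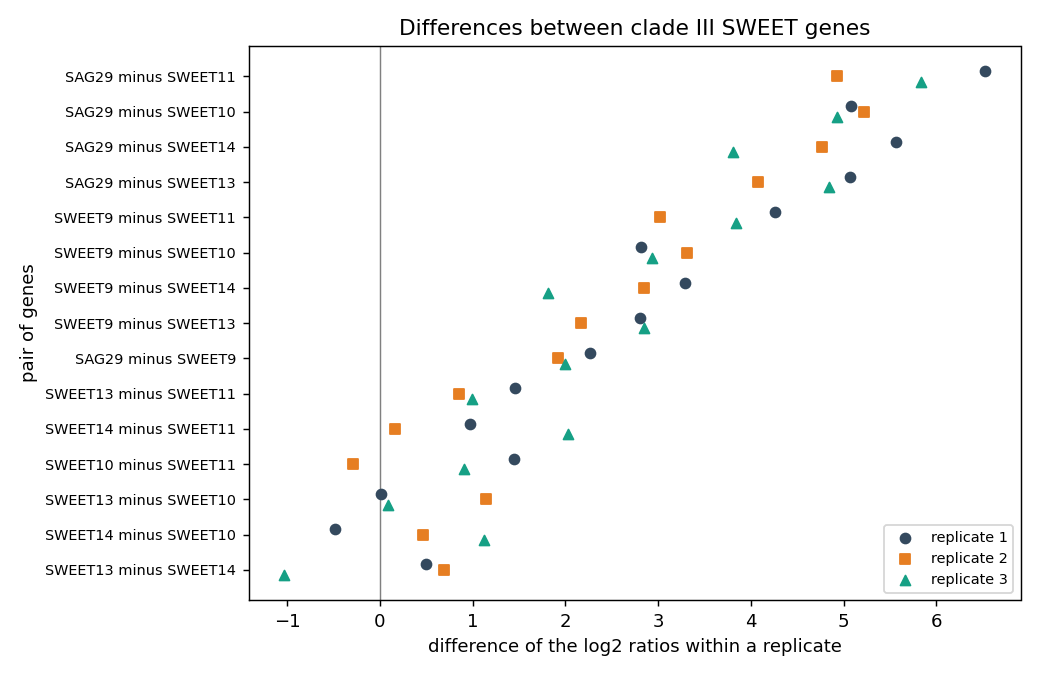
Difference of the log2 ratios of 2 members within a replicate (x axis) for the 15 pairs (y axis, ordered by mean), with 1 symbol per replicate. The pairs with SAG29 or SWEET9 lie between 1.81 and 6.53, whereas 3 of the 6 pairs among the strongly depleted genes have points on both sides of 0.

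The genes with array values most like those of each member were found by the root mean square difference over the 4 arrays, as a description without a test. For SWEET11 the nearest was the auxin-conjugating enzyme gene GH3.3, at a distance of 0.27 on the log2 scale, followed by AT3G15650 and AT2G30540. The nearest to SWEET10 were AT3G53980, AT1G72910 and AT1G26970 (0.20 to 0.28), and to SWEET13 AT4G00870, AT2G20100 and AT4G21930 (all 0.19). SWEET14 had the most distant nearest genes, AT5G53730, AT1G29670 and AT2G32870 (0.45 to 0.49). The nearest to SWEET9 were AT1G23610, AT5G21020 and AT1G70390 (0.05 to 0.07), and to SAG29 AT4G34910, AT1G47570 and AT3G04650 (0.04 to 0.06), in a range of ratios that many genes share. Between members the closest were SWEET10 and SWEET14, at 0.72, and no member was among the 3 nearest of another.

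Other SWEET genes also ranged from strongly lower to higher. Of 10 listed genes of the other clades 8 were measured on all arrays, and 4 were lower, 1 was higher and 3 did not pass (limma at the gene level, where 57.6% of 10480 genes were called, 23.6% as lower and 34.0% as higher), with a median of -0.39 beside 0.15 over all genes. SWEET3, 1 of the 4 lower genes, was at -0.52 ± 0.26 (limma adjusted p = 0.0241) and lost its call when replicate 1 or replicate 3 was left out (adjusted p = 0.0646 and 0.0911). SWEET4, a hexose carrier, was at -3.74 ± 0.70, as low as SWEET13, and the tonoplast fructose carrier SWEET17 was at -3.04 ± 0.24, with its 2 probes apart at -1.97 and -4.12. The glucose carrier SWEET1 was at -2.83 ± 0.66, whereas SWEET8, which is needed for the pollen wall, was higher at 1.21 ± 0.40. SWEET4, outside clade III, was thus also more than 8-fold lower. So was SWEET17, narrowly (8.25-fold as the mean of its 2 probes), though its probe at -1.97 was not.

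The rest of the sugar pathway was thinly covered by named probes. Genes given by locus below have only the locus as their symbol in the RefSeq annotation and stand for the list on which their locus was put. They were listed as BFRUCT3 (AT1G62660), SPP2 (AT2G35840), SPP3A (AT3G54270), STP3 (AT5G61520), STP5 (AT1G34580) and VGT2 (AT5G17010). None of 9 sucrose/proton symporters, 6 sucrose synthases, 5 hexokinases or 7 UMAMIT amino acid exporters was measured, so the carriers and enzymes that would take sucrose up and break it down are mostly out of view. Of the 10 measured sugar genes outside the SWEET family, 4 were lower, 1 was higher and 5 did not pass, with a median of -0.28. AT1G62660, from the list of invertases, which split sucrose, was 4.30-fold lower (-2.10 ± 0.48, limma adjusted p = 0.000591). It was at -2.58 in replicate 1, -2.32 (Cy3) and -0.92 (Cy5) in replicate 2, and -2.12 in replicate 3, so the Cy5 array of replicate 2 stood above the other 3, among them the array of the same RNA.

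Of 3 measured genes on the list for sucrose synthesis 2 were lower. AT2G35840 was at -1.10 ± 0.19 (2.14-fold lower), and ATSPS4F, a sucrose phosphate synthase gene, at -0.81 ± 0.35 (1.75-fold lower). AT3G54270 did not pass (-0.15 ± 0.23). Of 4 measured genes on the list of vacuolar and polyol carriers, TMT1, which loads sugars into the vacuole, was higher at 0.71 ± 0.26 (1.64-fold, limma adjusted p = 0.00819) and lost its call without replicate 2 (adjusted p = 0.0586). Its relatives TMT2 (0.28 ± 0.08) and TMT3 (0.29 ± 0.26) did not pass, though TMT2 did with replicate 2 entered as a random block of 2 arrays (limma adjusted p = 0.0482), and AT5G17010 was lower at -1.18 ± 0.21. On the list of hexose/proton symporters, AT5G61520 and AT1G34580 did not pass, at -0.08 ± 0.13 and -0.42 ± 0.35, but AT1G34580 passed as lower with each array centred on its median (-0.54, limma adjusted p = 0.0422).

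**Figure D4:**
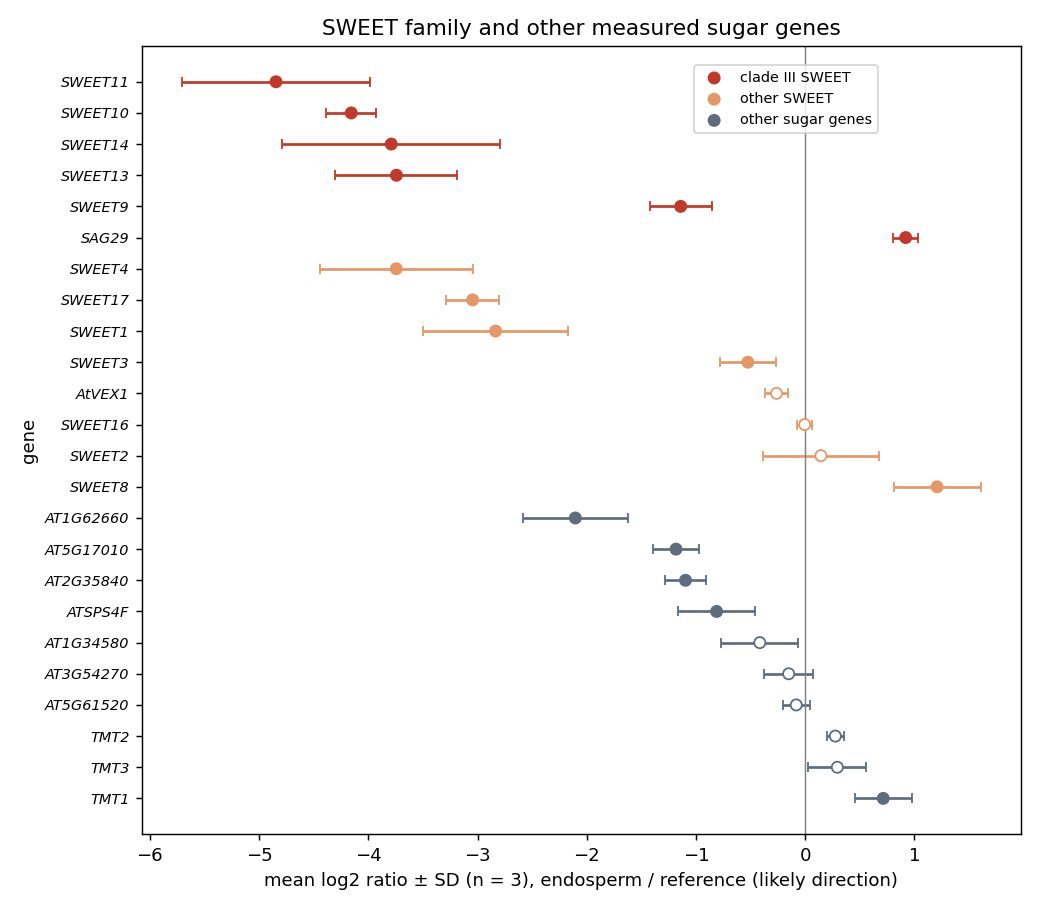
Mean log2 ratio with SD over 3 replicates (x axis) of the 6 clade III SWEET genes, 8 other SWEET genes and 10 other measured sugar genes (y axis); filled points passed the test at the gene level and open points did not. SWEET11 and SWEET10 are the lowest of the 24 genes, SWEET14, SWEET4 and SWEET13 lie together between -3.79 and -3.74, and SAG29, SWEET8 and TMT1 are the 3 that were higher.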

How the data were processed

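The authors deposited 1 table, which gives each probe's log ratio of the 2 channels on each array, already centred near 0. A log2 scale is assumed for the deposited values because they have both signs and run from -6.12 to 4.82, and the labels name 2 channels per array. Per the labels' protocols, both RNAs went through 2 rounds of in vitro transcription and were coupled to Cy dyes, which can change the proportions of transcripts. The scanner, the background correction, the normalization, the log base and the reason for empty cells are not given in the sources used. With another base, folds would differ and p-values against no change would not.

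The platform's gene table names 14539 of 26912 probes with 1 gene each, 0 with several, and 12373 are unnamed here; 14485 were matched to RefSeq (TAIR10.1). The arrays of replicate 2 were averaged first (n = 3), so that a dye effect cancels in the mean. The test of the mean against 0 used limma 3.58.1 with R 4.3.3 (eBayes, two-sided, Benjamini-Hochberg over all 19449 probes, or over 10480 genes with probes averaged for the lists). The dye was tested as a term on the 4 arrays. This fit, also the source of the means with the dye as a covariate, took the arrays of replicate 2 as independent samples. The test was also tried on simulated data in which, unlike here, few probes changed, so that trial says little about the calls above. Alternatives left out replicates, centred or scaled arrays, used 1 dye, added the dye as a covariate, kept the arrays of replicate 2 apart or as a block, relaxed the filter, averaged probes, or tested against a fold change of 1.5.

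The table has no intensities to filter dim spots by, and precision is limited by the few arrays. Members and gene lists were chosen with earlier results of these data known. Named genes are all members, every measured gene of a list with 4 or fewer and otherwise the 4 with the smallest p, the 3 nearest genes of each member, the neighbours of SWEET10 and SWEET13, and 2 genes per marker list. SWEET3, AtVEX1 and DFR were named after their values were seen.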

Additional observations from a re-analysis of the deposited data

How the results depend on the processing

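The 6 members were recomputed under 13 alternatives each, and all kept their sign. The 5 lower members were called under every one of them. The share of all probes called is given only for the main test (57.5%) and against a fold change of 1.5 (25.1%). Under the other alternatives a kept call therefore says little by itself. Their means ranged from -5.26 to -4.36 (SWEET11), -4.34 to -4.04 (SWEET10), -4.50 to -3.11 (SWEET14), -4.04 to -3.48 (SWEET13) and -1.23 to -0.98 (SWEET9). SAG29 ranged from 0.82 to 1.02 and lost its call only against a fold change of 1.5 (0.92, adjusted p = 0.0658), where the number of members called higher was 0. At the gene level the main fit called 23.6% of all genes as lower and 34.0% as higher. Of the 18 other measured sugar genes, SWEET genes of other clades included, 8 were called lower (6 to 10 across alternatives) and 2 higher. The number higher was 1 without replicate 2 or against a fold change of 1.5, and 3, TMT2 included, with the dye as a covariate or with the arrays of replicate 2 kept separate or as a random block. AtVEX1 (SWEET5), not called in the report, passed as lower with arrays centred (adjusted p = 0.034) or also scaled (0.0302), with the dye as a covariate (0.0465) and with the arrays of replicate 2 separate (0.0386); AT1G34580 also passed with arrays centred and scaled (0.0304). SWEET3 also lost its call on the Cy5 arrays alone (-0.32, adjusted p = 0.208) and against a fold change of 1.5, as TMT1 and ATSPS4F did against that fold. SWEET17 lay between -3.19 and -2.85, on both sides of 8-fold. Leaving out 1 replicate moved SWEET2 between -0.16 and 0.31 and SWEET16 between -0.034 and 0.032, both without passing, SWEET14 minus SWEET10 between -0.012 and 0.79, and SWEET13 minus SWEET14 between -0.27 and 0.59; the cause was not tested. The dye term was not passed by any member, with the arrays of replicate 2 as independent or as a random block (0 and 14 of 19449 probes passed in limma, and 1828 and 2235 had an unadjusted p under 0.05). Differences between members were taken within replicates, but no replicate block between groups could be fitted, since all arrays belong to 1 group. With 3 replicates and no intensities, signal over background could not be assessed.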
